A study of Mus musculus with 12 samples.

Results

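The data describe genes of cytosolic nucleic acid sensing. In all, 10 were sought by gene symbol in 2 deposited knockdown comparisons of mouse bone marrow-derived macrophages, and 9 were found among 14264 genes. They encode the RNA sensors RIG-I (Ddx58), MDA5 (Ifih1) and LGP2 (Dhx58), the DNA sensor cGAS (Mb21d1), the Z-form nucleic acid sensor ZBP1 (Zbp1), the adaptors MAVS (Mavs) and STING (Tmem173), and the kinases TBK1 (Tbk1) and IKKε (Ikbke). Trex1, which encodes a cytosolic DNA exonuclease, was the 1 gene of the 10 that was not found by symbol and was not analysed here. The genes were taken by symbol, by a rule that uses no measured value, but the set was chosen with earlier results of these data known.

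The macrophages were grown from mouse marrow and carried either a control short hairpin (shCTRL, labelled WT) or a hairpin that depletes MOF (shMOF), a lysine acetyltransferase encoded by Kat8. Each was left unstimulated or given 100 ng/ml of the bacterial product LPS for 3 h, which makes 4 groups of 3 RNA-seq libraries. The 2 deposited comparisons set shMOF against shCTRL, 1 in unstimulated cells and 1 at LPS 3 h, so the groups contrasted share no library. Every gene has the same mean count in both, so the means probably cover the same libraries. Whether all 12 libraries entered each fit is not stated. Strain, age and sex of the mice are not given in the labels, nor is a second hairpin, so effects of the hairpin other than loss of MOF cannot be told apart from it. Whether the 3 libraries of a group stem from different mice or cultures is not in the labels, and the p-values therefore measure only the spread between these libraries, which may be technical.

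RIG-I and MDA5 bind double-stranded RNA in the cytosol and signal through MAVS on mitochondria, and LGP2, which lacks the signalling domains, modulates them. cGAS binds DNA and makes the messenger cGAMP, which activates STING at the endoplasmic reticulum. Both routes lead to TBK1 and IKKε, which phosphorylate IRF3 and IRF7 and so switch on type I interferon genes. In macrophages LPS also reaches TBK1 through TLR4 and its adaptor TRIF, and the interferon that follows induces several of the sensor genes in turn.

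Kat8, the target of the hairpin, was lower in both states, and the authors' deposited table gives log2 fold changes of -2.25 (SE 0.10) unstimulated and -2.31 (SE 0.13) after LPS. All 8 macrophage markers sought (such as Adgre1, Csf1r and Lyz2) were found, with mean normalized counts from 1233 to 259735. Of 8 neutrophil and precursor markers 2 were found, at 21.0 for S100a8 and 6.69 for Camp, and of 8 lymphocyte markers 1, Cd4, at 166.9. The macrophage markers were higher in 8 of 8 cases unstimulated and 6 of 8 at LPS 3 h. The stromal markers, with mean normalized counts from 13.7 to 667, were higher in 3 of 6 and 4 of 6. Dendritic cell markers were found in 3 of 7 cases, of which 1 rose unstimulated and 2 others after LPS. Bst2, with a mean normalized count of 10880, rose unstimulated only. Zbtb46, at 43.0, and Ccr9, at 21.1, rose at LPS 3 h only. Proliferation markers fell in 6 of 6 cases unstimulated, and at LPS 3 h 5 fell while Mki67 rose. Over all genes, at an adjusted p under 0.05, 21.3% were higher and 17.8% lower unstimulated. At LPS 3 h these shares were 28.1% and 20.0%. The part of these marker changes in the results on the sensor genes was not tested. In bulk RNA a change in the number of cells of a type and a change in RNA per cell cannot be told apart.

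In unstimulated cells the knockdown raised 4 of the 9 genes and lowered 1. Zbp1, Ikbke, Ifih1 and Ddx58 rose, by 1.28-fold to 1.76-fold, and Mb21d1 fell to 0.681 of the control level. Dhx58, Mavs, Tmem173 and Tbk1 did not pass. A gene was called at an adjusted p under 0.05 with no minimum fold. By this rule 39.1% of all 14264 genes were called, 21.3% higher and 17.8% lower, so a count of 5 in 9 is not far from the share over all genes. The median log2 fold change was 0.24 over the 9 genes and 0.03 over all genes.

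After 3 h of LPS 5 genes were called, with 3 higher and 2 lower. Ifih1 rose by 1.74-fold, Mb21d1 by 1.36-fold and Tbk1 by 1.06-fold, while Mavs fell to 0.816 and Tmem173 to 0.784 of the control level. Ddx58, Dhx58, Zbp1 and Ikbke did not pass. Over all 13987 genes tested at LPS 3 h, 48.0% were called, 28.1% higher and 20.0% lower, so 5 in 9 is again not far from the share over all genes. The median over the 9 genes was 0.09 on the log2 scale, against 0.03 over all genes. Both Ifih1 and Mb21d1 were called in each state, and Mb21d1 with opposite signs. None of the 9 genes changed by 2-fold in either state. The shares over all genes called in both states, called with opposite signs or past 2-fold were not counted.

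**Figure D1:**
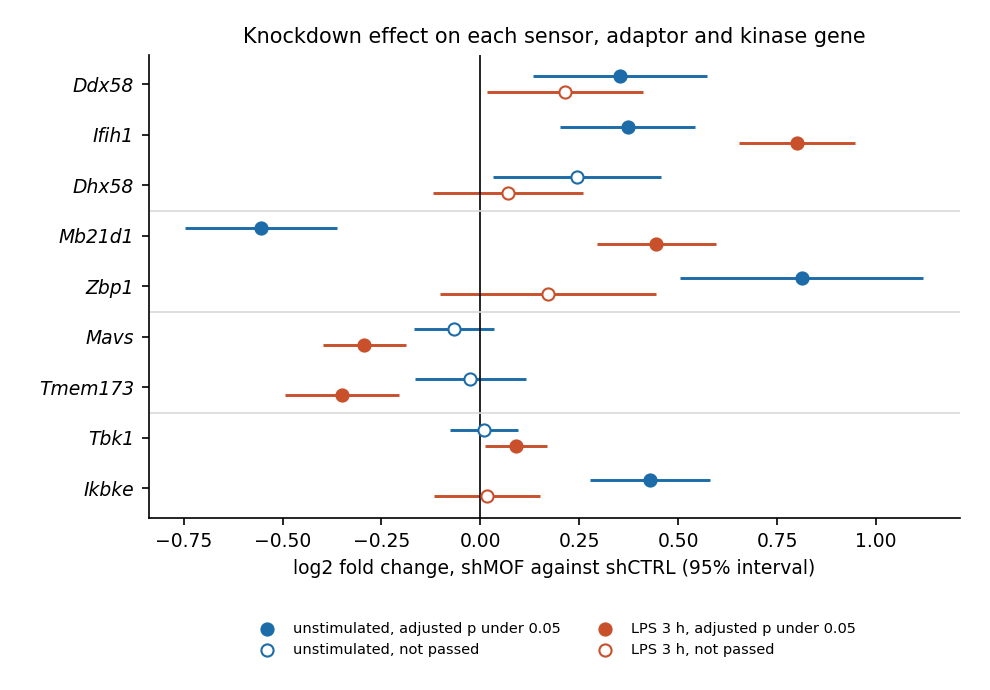
Log2 fold change of shMOF against shCTRL for the 9 genes (x axis) with 95% intervals, unstimulated in blue and at LPS 3 h in orange, filled where the adjusted p was under 0.05. Ifih1 lies right of 0 in both states, Mb21d1 lies at -0.55 unstimulated and 0.44 at LPS 3 h, and the adaptors Mavs and Tmem173 lie left of 0 at LPS 3 h.

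The knockdown effect itself differed between the states for 6 of the 9 genes. The difference is the log2 fold change at LPS 3 h less that in unstimulated cells, tested with the 2 deposited SE over 12994 genes. It equals the log2 LPS response of shMOF cells less that of shCTRL cells, so a positive value means that the gene stood higher after LPS, relative to its unstimulated level, in knockdown than in control cells. It was positive past the threshold for Mb21d1 and Ifih1, and negative for Zbp1, Ikbke, Tmem173 and Mavs. Ddx58, Dhx58 and Tbk1 did not pass. Of all genes tested 30.6% were called, 18.2% with a positive and 12.4% with a negative difference. The difference was negative past the threshold for 5 of 8 macrophage markers and positive for 0, with a median of -0.26. It was positive for 4 of 6 proliferation markers and negative for 0, with a median of 0.66, and it passed for 0 of 6 stromal markers and, with a negative sign, for 1 of 3 dendritic cell markers. The part of these markers in the differences was not tested. Whether LPS raised or lowered a gene in either cell population is not given by these tables.

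**Figure D2:**
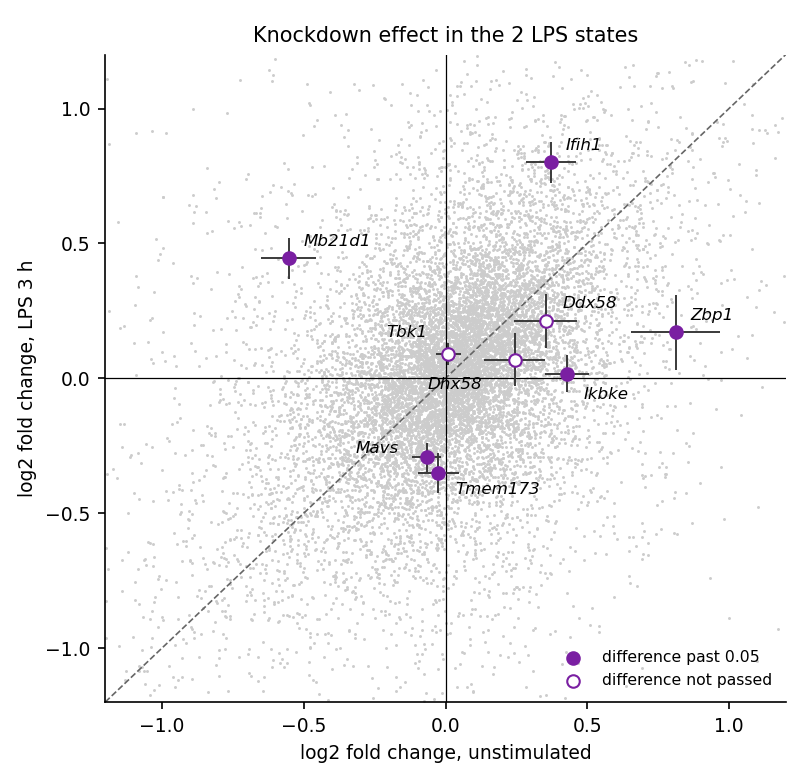
Log2 fold change of shMOF against shCTRL in unstimulated cells (x axis) and at LPS 3 h (y axis) for the 9 genes, with SE as bars, over every gene whose mean normalized count reached 10 and that lies within the axes (grey). Filled points differ between the states at an adjusted p under 0.05, and Mb21d1 alone of the 9 lies at upper left, with -0.55 and 0.44.

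Among the RNA sensors, Ifih1 had the largest rise at LPS 3 h. Its MDA5 product binds long double-stranded RNA. The authors' deposited table puts the log2 fold change of Ifih1 in unstimulated cells at 0.37 (SE 0.09, adjusted p = 9.75e-05), a fold of 1.29 with a 95% interval of 1.15 to 1.46. Tested for a log2 change beyond 0.25, the unstimulated call was lost (adjusted p = 0.425). After LPS, the authors' deposited table puts it at 0.80 (SE 0.08, adjusted p = 6.13e-25), with an interval of 1.57-fold to 1.93-fold. The 2 intervals do not overlap, and the difference of 0.43 (SE 0.11) passed (adjusted p = 0.00124).

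Ddx58, whose product RIG-I recognises RNA with a 5′ triphosphate, was called in unstimulated cells. There the authors' deposited table has it at 0.35 on the log2 scale (SE 0.11, adjusted p = 0.00587), and after LPS at 0.21 (SE 0.10, adjusted p = 0.0681). The unstimulated call of Ddx58 was also lost when tested for a log2 change beyond 0.25 (adjusted p = 0.732). These effects are not shown to differ, since the difference of -0.14 had a 95% interval from -0.44 to 0.16 (adjusted p = 0.525). Dhx58 was the 1 gene called in neither state. For this gene the authors' deposited table gives 0.24 (SE 0.11, adjusted p = 0.0597) unstimulated and, after LPS, 0.07 (SE 0.10, adjusted p = 0.589). Its difference was -0.17, with an interval from -0.46 to 0.11 (adjusted p = 0.3896). When p-values were adjusted only over genes whose mean normalized count reached 50, Dhx58 passed in unstimulated cells (adjusted p = 0.0484).

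Of the RNA sensor genes, Ifih1 and Ddx58 carry a match to the interferon-stimulated response element at the start of the gene. The element, bound by IRF family factors, was searched on both strands as GAAA, any 2 bases and GAAA again, in windows from 250 bases before to 50 bases after the RefSeq start (GRCm38.p6). Such windows were searched for 6 of the 9 genes, Ddx58, Ifih1, Mb21d1, Mavs, Tbk1 and Ikbke. The match lies 33 to 42 bases into Ifih1 and, as its reverse complement, 3 to 12 bases into Ddx58, counting the start as base 1. The other 4 windows hold none, and 3.44% of 32851 windows in the table hold at least 1. The 30 bases around each match are shown on the strand of the gene, with the element in capitals, since these are the 2 windows that hold the element. Zbp1, which also rose in unstimulated cells, and Dhx58, the RNA sensor gene that was not called, are not among the 6 windows. Called and uncalled RNA sensors thus cannot be compared for the element. The regions are chr2:62646206-62646235 and chr4:40239804-40239833, both on the minus strand.
Ifih1: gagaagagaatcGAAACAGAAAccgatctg
Ddx58: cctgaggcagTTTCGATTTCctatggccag

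A shorter IRF core, AANNGAAA on either strand, overlaps each of these elements and occurs in 23.9% of all windows. It was found in 3 of the 6, those of Ddx58, Ifih1 and Ikbke. None of the 6 holds a GAS element (TTCNNNGAA, in 8.30% of windows) or an NF-kB motif (in 8.46%). The 140 bases before the start are shown for Ikbke and Ddx58, with the core in capitals, and for Mb21d1, which has no match and whose knockdown effect changed sign. All are on the minus strand, at chr1:131279564-131279703, chr4:40239826-40239965 and chr9:78443238-78443377. A match is a description of letters and says nothing of binding in these cells.
Ikbke: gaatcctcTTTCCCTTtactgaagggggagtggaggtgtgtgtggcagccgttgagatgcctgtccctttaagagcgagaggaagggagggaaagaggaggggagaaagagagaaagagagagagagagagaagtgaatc
Ddx58: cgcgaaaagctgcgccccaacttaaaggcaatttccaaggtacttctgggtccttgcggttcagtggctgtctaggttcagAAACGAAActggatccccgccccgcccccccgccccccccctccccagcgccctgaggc
Mb21d1: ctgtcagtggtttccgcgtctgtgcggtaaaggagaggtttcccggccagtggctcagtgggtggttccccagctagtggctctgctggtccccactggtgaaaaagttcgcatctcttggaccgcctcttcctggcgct

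The DNA sensor gene Mb21d1 changed sign between the states. In the authors' deposited table Mb21d1 stood at -0.55 (SE 0.10, adjusted p = 1.50e-07) on the log2 scale when unstimulated. After LPS it stood at 0.44 (SE 0.08, adjusted p = 4.81e-08) by the authors' deposited table. As a fold these were 0.681 (95% interval 0.596 to 0.778) and 1.36 (1.23 to 1.51) of the control level. The difference of 0.998 (SE 0.12, adjusted p = 6.55e-14) was the largest of the 9. The LPS response ratio was thus 1.997 times that of control cells, with an interval from 1.69 to 2.37. Both calls also held when tested for a log2 change beyond 0.25, with adjusted p = 0.0114 unstimulated and adjusted p = 0.0349 after LPS. The annotated 3′ end of Mb21d1 overlaps over 280 exon bases with the pseudogene Gm8093 on the opposite strand, which had a mean normalized count of 4.88 against 972 for Mb21d1.

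Zbp1, whose product binds Z-form RNA and DNA and can trigger necroptosis through RIPK3, had the largest rise of the 9 in unstimulated cells. By the authors' deposited table its log2 fold change was 0.81 (SE 0.16, adjusted p = 1.68e-06), or 1.76-fold with an interval of 1.42 to 2.17. After LPS the authors' deposited table has 0.17 (SE 0.14, adjusted p = 0.323), with an interval of 0.932-fold to 1.36-fold. The difference was -0.64 (SE 0.21, adjusted p = 0.0101), so its LPS response ratio in knockdown cells was 0.641 of that in control cells. Zbp1 and Mb21d1 thus moved in opposite directions both in unstimulated cells and in the difference.

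The 2 adaptor genes had the same sign and the same call in each comparison. For Mavs the authors' deposited table lists -0.07 (SE 0.05, adjusted p = 0.325) on the log2 scale unstimulated and, after LPS, -0.29 (SE 0.05, adjusted p = 2.92e-07). For Tmem173 the authors' deposited table lists -0.03 (SE 0.07, adjusted p = 0.822) and, after LPS, -0.35 (SE 0.07, adjusted p = 8.69e-06). The falls after LPS were modest, to 0.816 (interval 0.759 to 0.878) and 0.784 (0.710 to 0.867) of the control level. Both differences passed, at -0.23 (SE 0.07, adjusted p = 0.0104) for Mavs and -0.32 (SE 0.10, adjusted p = 0.00751) for Tmem173. Neither fall passed when tested for a log2 change beyond 0.25 (adjusted p = 0.616 for Mavs and adjusted p = 0.322 for Tmem173).

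The 2 kinase genes, Ikbke and Tbk1, differed in what was called. Ikbke, the inducible kinase of the pair, rose in unstimulated cells. Its log2 fold change there was, by the authors' deposited table, 0.43 (SE 0.08, adjusted p = 2.77e-07), or 1.35-fold. This call was lost when tested for a log2 change beyond 0.25 (adjusted p = 0.0908). For the cells given LPS the authors' deposited table has 0.02 (SE 0.07, adjusted p = 0.867), with an interval of 0.921-fold to 1.11-fold. The difference of -0.41 (SE 0.10, adjusted p = 0.000522) was negative, as for Zbp1. Tbk1, which is present in most cells, had the smallest SE of the 9. Unstimulated, the authors' deposited table has Tbk1 at 0.01 (SE 0.04, adjusted p = 0.890), with an interval of 0.949-fold to 1.07-fold. Its rise after LPS, which the authors' deposited table puts at 0.09 (SE 0.04, adjusted p = 0.0474), was no longer called after centring on the median of all genes (adjusted p = 0.206). The difference for Tbk1 was 0.08, with an interval from -0.04 to 0.20 (adjusted p = 0.3204).

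The precision of the effects differed among the 9 genes. Among the 6647 genes with a mean normalized count from 500 to 20000, the median SE was 0.0638 unstimulated and 0.0608 at LPS 3 h. Zbp1, Ddx58 and Dhx58 had larger SE than 98.1%, 95.5% and 94.9% of these genes in unstimulated cells. At LPS 3 h the shares were 98.5%, 95.4% and 94.5%. Tbk1 lay at the other end, with 6.89% and 5.60% of these genes below it, and Mavs had 20.3% and 34.1%. The 0.24 of Dhx58 in unstimulated cells, which did not pass, had an SE of 0.11, against 0.04 for Tbk1.

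**Figure D3:**
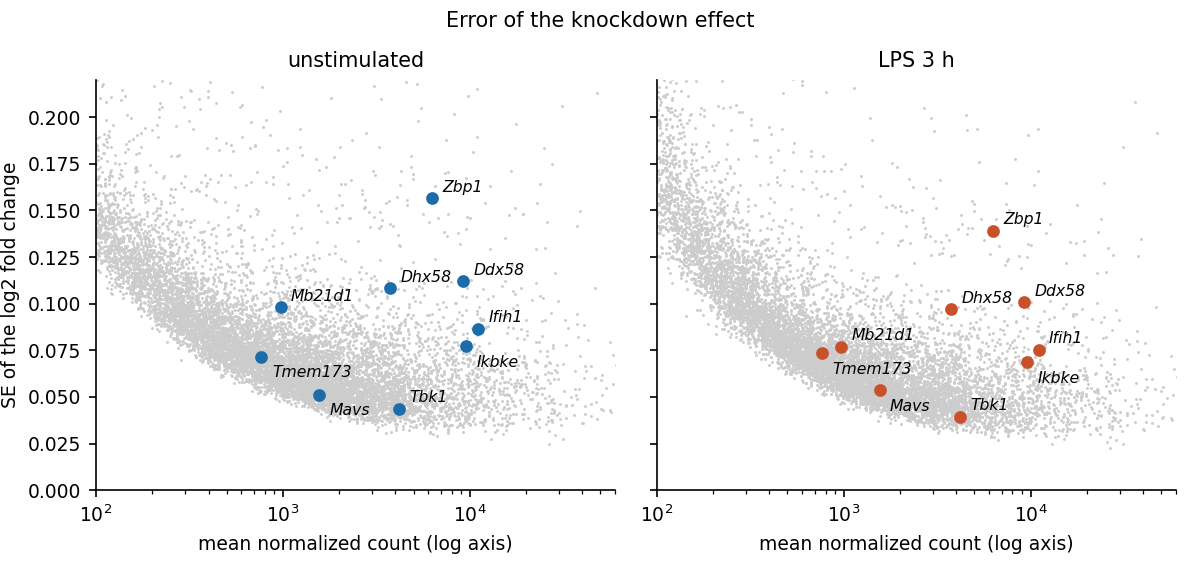
SE of the log2 fold change (y axis) against the mean normalized count (x axis, log scale) for the 9 genes in colour and for every gene whose mean reached 100 and that lies within the axes in grey, unstimulated at left and LPS 3 h at right. Zbp1 has the largest SE of the 9 in both states (0.16 and 0.14) and Tbk1 the smallest (0.04 in both).

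All 9 genes were well covered, with deposited mean normalized counts from 768 for Tmem173 to 11030.2 for Ifih1. The same mean is given in both tables, and the libraries it covers are not stated, so no level per group and no spread can be given. Per kilobase of annotated exon (GENCODE M21, GRCm38) the order ran from Zbp1 at 1784, Ifih1 at 1351, Ddx58 at 1306 and Dhx58 at 1149 down to Tbk1 at 1072 and Ikbke at 1065. Mavs at 465, Tmem173 at 280.2 and Mb21d1 at 236 lay lower. The 2 adaptors and cGAS thus had the lowest mean levels per length of the 9. Per kilobase of the longest transcript Ddx58 stood first at 2376 and Ikbke at 1639.6, both over 1.5 times their value by the union of exons, and the same 3 genes came last.

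**Figure D4:**
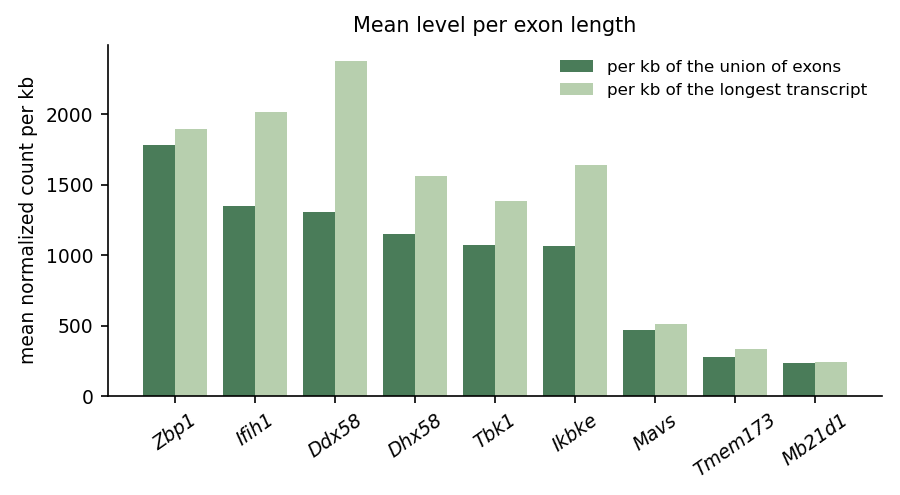
Mean normalized count per kilobase (y axis) for each of the 9 genes, over the union of annotated exons (dark) and over the longest annotated transcript (light). Mavs, at 465 and 509, Tmem173 and Mb21d1 are lower by both lengths than the other 6, of which the lowest value is 1065 for Ikbke.

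On GRCm38, Ifih1 (ENSMUSG00000026896.14) lies at chr2:62595798-62646255, Mavs (ENSMUSG00000037523.13) at chr2:131234063-131248025 and Zbp1 (ENSMUSG00000027514.14) at chr2:173206612-173218923. Ddx58 (ENSMUSG00000040296.15) lies at chr4:40203773-40239828, Dhx58 (ENSMUSG00000017830.15) at chr11:100694884-100704271 and Mb21d1 (ENSMUSG00000032344.17) at chr9:78430526-78443237. The kinase genes Tbk1 (ENSMUSG00000020115.2) and Ikbke (ENSMUSG00000042349.13) lie at chr10:121546455-121586787 and chr1:131254343-131279606, and Tmem173 (ENSMUSG00000024349.9) is on chromosome 18. Mavs is on the plus strand and the others on the minus strand. Dhx58 and Ikbke overlap annotated antisense genes, 1 and 2 of them, and whether the authors counted reads by strand is not given in the sources used here.

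Genes that act with these sensors were grouped in lists by function and are described by counts. Of 25 partners of the RIG-I-like receptors and MAVS, 8 rose and 5 fell in unstimulated cells, and 15 rose and 2 fell at LPS 3 h. As shares called these are 52% and 68%, against 39.1% and 48.0% of all genes. The helicase gene Ddx3x, whose product binds MAVS, stood, by the authors' deposited table, at -0.02 (SE 0.03, adjusted p = 0.716) unstimulated and 0.38 (SE 0.03, adjusted p = 1.81e-33) after LPS. Mex3c, a ubiquitin ligase gene for RIG-I, fell in unstimulated cells, where the authors' deposited table has -0.67 (SE 0.06), and had 0.11 (SE 0.05, adjusted p = 0.0638) after LPS. The difference passed for 12 of the 25 partners with a positive sign and for 1 with a negative sign, Nlrx1 at -0.95, which encodes a mitochondrial inhibitor of MAVS. Together these are 52% of the list, against 30.6% of all genes. Nlrx1 was named after its value was seen. The authors' deposited table has Nlrx1 at 0.25 (SE 0.10, adjusted p = 0.0403) unstimulated and -0.70 (SE 0.13, adjusted p = 8.52e-07) after LPS.

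Of 26 partners of STING and cGAS, 8 rose and 2 fell in unstimulated cells, and 13 rose and 5 fell at LPS 3 h. Insig1, which serves cholesterol sensing and also STING, rose in both states, by 0.72 (SE 0.07) unstimulated and 1.08 (SE 0.06) after LPS per the authors' deposited table. The DNA-binding inflammasome receptor gene Aim2 rose after LPS by 0.77 (SE 0.07) per the authors' deposited table. Banf1, whose product coats DNA and keeps cGAS from it, fell in both, with -0.56 (SE 0.06) unstimulated and -0.57 (SE 0.06) after LPS per the authors' deposited table. G3bp1, a stress granule gene whose product aids cGAS, fell unstimulated, with -0.32 (SE 0.05) per the authors' deposited table. After LPS the authors' deposited table has G3bp1 at 0.12 (SE 0.05, adjusted p = 0.0279), and its difference was 0.44 (SE 0.07). In this list 38.5% of genes were called unstimulated, against 39.1% of all genes, and 69.2% after LPS, against 48.0%. The difference passed for 8 with a positive and 0 with a negative sign, or 30.8% against 30.6% of all genes.

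Around TBK1 and IKKε, 6 of 20 genes rose and 4 fell in unstimulated cells, and 12 rose and 1 fell at LPS 3 h. As shares called these are 50% and 65%, against 39.1% and 48.0% of all genes. The difference passed for 11 with a positive and 1 with a negative sign, or 60% against 30.6% of all genes. The scaffold gene Tank stood, by the authors' deposited table, at -0.08 (SE 0.06, adjusted p = 0.303) unstimulated and 0.61 (SE 0.05, adjusted p = 1.23e-31) after LPS. Optn, which encodes a ubiquitin-binding adaptor and substrate of TBK1, rose after LPS by 0.87 (SE 0.07) per the authors' deposited table, and Tnip1, which encodes a ubiquitin-binding inhibitor of NF-kB signalling, by 0.46 (SE 0.04). Tbkbp1, another scaffold, rose unstimulated by 0.34 (SE 0.06) per the authors' deposited table. Traip had the lowest values of the list, -1.78 (SE 0.17) unstimulated and -1.35 (SE 0.21) after LPS per the authors' deposited table. The transcription factors that the kinases phosphorylate were added after their values were seen. Irf3 did not pass in either state, with 0.05 (SE 0.06, adjusted p = 0.542) and -0.01 (SE 0.06, adjusted p = 0.925) per the authors' deposited table. Irf7 rose unstimulated, with 0.44 (SE 0.13, adjusted p = 0.00261) per the authors' deposited table, and after LPS stood at -0.01 (SE 0.12, adjusted p = 0.941). The negative difference in this list was that of Irf7, -0.46 (SE 0.17, adjusted p = 0.0333), which has the same sign and call as that of Ikbke.

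Of 9 ZBP1 and necroptosis partners, 5 rose and 0 fell in unstimulated cells and 6 rose and 0 fell at LPS 3 h. As shares called these are 55.6% and 66.7%, against 39.1% and 48.0% of all genes. The difference passed for 2 with a positive and 0 with a negative sign, or 22.2% against 30.6% of all genes. Cflar, an inhibitor of caspase-8, rose by 0.22 (SE 0.07) and 0.56 (SE 0.06), and Casp6, a caspase gene, by 0.48 (SE 0.09) and 0.32 (SE 0.09), per the authors' deposited table. Ripk3 and Mlkl, the kinase and the executioner of necroptosis, were named after their values were seen. Neither passed. The authors' deposited table has Ripk3 at 0.16 (SE 0.10) unstimulated and -0.02 (SE 0.09) after LPS, and Mlkl at -0.06 (SE 0.09) and -0.15 (SE 0.08).

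Downstream, 11 of 14 interferon and early IRF3 target genes sought were found. In unstimulated cells 2 rose and 2 fell, and at LPS 3 h 8 rose and 0 fell, with medians of 0.25 and 0.61 on the log2 scale. As shares called these are 36.4% and 72.7%, against 39.1% and 48.0% of all genes. The difference itself passed for 3 of the 11, all positive, or 27.3% against 30.6% of all genes, so most of the list is not shown to differ between the states. Ifnb1, the interferon-β gene, rose after LPS by 1.07 (SE 0.20, adjusted p = 5.56e-07) per the authors' deposited table. Unstimulated, its SE was 1.11 around a value of -0.31 per the authors' deposited table, so no difference between the states was detectable (adjusted p = 0.385). Cxcl10, an interferon-induced chemokine gene, fell unstimulated with -1.65 (SE 0.25) per the authors' deposited table and had the largest difference of the list, 2.38 (SE 0.32, adjusted p = 6.57e-12). Its effect thus changed sign as that of Mb21d1 did, since after LPS the authors' deposited table has 0.72 (SE 0.21, adjusted p = 0.00155). Among other list genes, the called effect of G3bp1 also changed sign in this direction and that of Nlrx1 in the opposite direction.

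**Figure D5:**
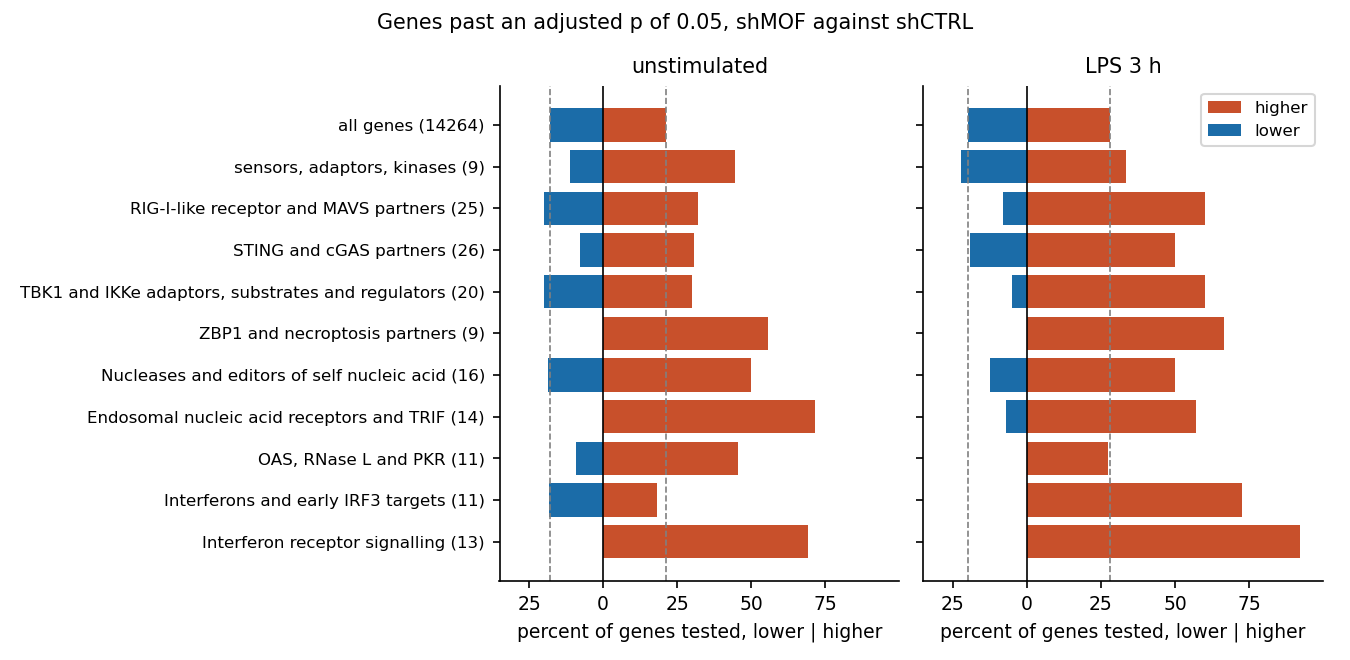
Percent of the genes of each list that were called higher (orange, right of 0) or lower (blue, left of 0) in shMOF against shCTRL, unstimulated at left and LPS 3 h at right, with the number of genes measured in brackets and dashed lines at the shares over all genes. Several genes stand in 2 lists, and the interferon and early IRF3 target list has 2 higher and 2 lower of 11 unstimulated and 8 higher and 0 lower at LPS 3 h, while the difference between the states passed for 3 of the 11.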

How the data were processed

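RNA-seq libraries, 3 in each of 4 groups, were made with a stranded mRNA kit and read in pairs of 100 bp, per the labels' protocols. DESeq2 (no version) and mm10 come from the submitters' processing notes. Aligner, counter and use of strand: not given in the sources used here. Per the file headers, each of 2 tables holds for 14264 genes a mean normalized count deposited by the authors, a signal that was identical in both tables. The authors' log2 fold change and its SE, a Wald score deposited by the authors, and the authors' p-value and adjusted p complete each table, per the file headers. No table gives values per library, so depth is unknown and precision is known through the SE only. Deposited values were used as they stand; the score equalled fold change over SE to within 1.53e-13, and 277 genes at LPS 3 h have no adjusted p.

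For the difference between states, the 2 squared SE were added and the root taken as its SE, which assumes uncorrelated errors. The normal p was two-sided and adjusted by Benjamini-Hochberg over the 12994 genes whose mean normalized count reached 10 (scipy 1.17.1, Python 3.11.15). The code was tested on data simulated with independent errors of the deposited size, which cannot check whether the real errors are uncorrelated. Intervals are 95% normal intervals. Of 205 list entries 181 were found by symbol. Named genes are the 9 members, Kat8 and, per list and comparison, up to 3 genes with the smallest adjusted p; others are marked in the text. Members and lists were chosen with earlier results of these data known. Exon lengths are from GENCODE M21 and promoter windows from RefSeq, GRCm38.p6.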

Additional observations from a re-analysis of the deposited data

Results flagged for a closer look

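For 6 of the 9 genes the knockdown effect differed between LPS 3 h and unstimulated cells by the test of the difference itself. Mb21d1 had the largest difference, 0.998 on the log2 scale (SE 0.12, adjusted p = 6.55e-14), and its effect changed sign. Ifih1 had 0.43 (SE 0.11, adjusted p = 0.00124). The other 4 were negative. Zbp1 had -0.64 (SE 0.21, adjusted p = 0.0101), Ikbke -0.41 (SE 0.10, adjusted p = 0.000522), Tmem173 -0.32 (SE 0.10, adjusted p = 0.00751) and Mavs -0.23 (SE 0.07, adjusted p = 0.0104). Over all genes tested 30.6% passed the same test.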

How the results depend on the processing

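No paired analysis was possible because the tables hold no values per library, and leaving out a library could not be run for the same reason. When tested for a log2 change beyond 0.25, the count of called genes fell from 5 to 2 in each state, Zbp1 and Mb21d1 unstimulated and Ifih1 and Mb21d1 at LPS 3 h. Over all genes these counts were 1492 and 2447, against 5575 and 6718. All other counts stayed within 1.5 times: 5 to 6 unstimulated, 4 to 5 at LPS 3 h and 4 to 6 for the difference. Over all genes these settings called 4346 to 5575 unstimulated, 5509 to 6718 at LPS 3 h and 2823 to 4892 for the difference. Of 144 single-gene values under these alternatives, 131 kept direction and call, 10 lost the call, 1 gained it and 2 that were not called changed sign. Many of the 131 could not have changed. A stricter threshold or the test beyond 0.25 cannot add a call. Every gene had an adjusted p unstimulated, so adjusting over every gene repeated the deposited values there. Of the 10 lost calls, 6 came from the test beyond 0.25. The sign changes came from centring on the median, Tbk1 at -0.0204 unstimulated and Ikbke at -0.0127 at LPS 3 h. The differences of Zbp1 and Mavs lost their call at a threshold of 0.01. An error correlation of 0.25 or -0.25 between the states left 6 differences called, with 4892 and 3265 called over all genes. The shorter IRF core was chosen after seeing the data.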

Other observations

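Genes of the endosomal nucleic acid receptor route, which were not part of the cytosolic set, rose more often than they fell. They include adaptors and chaperones as well as the receptors. Of 14 genes of this route 10 rose and 0 fell in unstimulated cells, and 8 rose and 1 fell at LPS 3 h. Over all genes 21.3% rose and 17.8% fell unstimulated, and 28.1% rose and 20.0% fell at LPS 3 h. Tlr9, the receptor for unmethylated CpG DNA, rose by 0.77 (SE 0.12), its chaperone Unc93b1 by 0.67 (SE 0.09) and the adaptor Myd88 by 0.70 (SE 0.09) unstimulated, per the authors' deposited table. Tlr7, a receptor for single-stranded RNA, rose after LPS by 0.67 (SE 0.08) per the authors' deposited table. The difference between the states passed for 4 of the 14 with a positive and 5 with a negative sign, with a median of -0.11. Together these are 64.3% of the list, against 30.6% of all genes. The double-stranded RNA receptor gene Tlr3 had 0.63 (SE 0.18, adjusted p = 0.00206), and Cnpy3, a chaperone gene for Toll-like receptors, had the lowest value, -0.50.

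Of 13 genes of interferon receptor signalling 9 rose and 0 fell unstimulated, and 12 rose and 0 fell at LPS 3 h. The list mixes activators with inhibitors such as Ptpn6, so these counts give no direction of signalling. Ptpn6 rose by 0.58 (SE 0.05) unstimulated and 0.13 (SE 0.05) after LPS per the authors' deposited table. Ifnar1, a receptor subunit, rose by 0.30 (SE 0.04) unstimulated and Irf1 by 0.74 (SE 0.08), and after LPS Irf1 rose by 1.13 (SE 0.07), per the authors' deposited table. Among 11 genes of the OAS, RNase L and PKR system 5 rose and 1 fell unstimulated, and 3 rose and 0 fell at LPS 3 h. Of 16 nucleases and editors of self nucleic acid 8 rose and 3 fell unstimulated, and 8 rose and 2 fell at LPS 3 h. Pld4, an endolysosomal exonuclease gene, rose by 0.43 (SE 0.07) and 0.29 (SE 0.06) and Fen1, a replication nuclease gene, fell with -0.62 (SE 0.08) and -0.43 (SE 0.08), per the authors' deposited table. The shares over all genes were 21.3% higher and 17.8% lower unstimulated and 28.1% and 20.0% at LPS 3 h.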
